A study of Mus musculus with 157 samples.

Results

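The aminoacyl-tRNA synthetases were followed in mouse bone marrow-derived macrophages exposed to crystals and other particles. Members were taken by gene symbol from the protein-coding rows of 8 expression tables: symbols made of a single letter and "ars", with or without a closing 1 or 2, together with Eprs, Farsa and Farsb. The rule found 37 genes of 24940 in each table. Of these, 20 encode cytosolic synthetases and 17, whose symbols end in 2, encode mitochondrial ones. Every member was above 0 in all 115 RNA libraries and was tested in every comparison.

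Aminoacyl-tRNA synthetases join each amino acid to its transfer RNA, the step that supplies translation with charged tRNA. Cytosolic and mitochondrial translation use mostly separate enzymes, all encoded in the nucleus, and Gars and Kars encode forms for both compartments. In mammals several cytosolic enzymes sit in the multisynthetase complex, here Dars, Eprs, Iars, Kars, Lars, Mars, Qars and Rars, held together by the scaffold proteins Aimp1, Aimp2 and Eef1e1. Eprs charges both glutamic acid and proline, and Farsa and Farsb are the alpha and beta subunits of a single phenylalanyl-tRNA synthetase. Many cytosolic synthetase genes are known targets of the transcription factor ATF4, which acts in the integrated stress response through the C/EBP-ATF response element.

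Promoter sequence, from 250 bases before to 50 after the transcript start, was given by RefSeq (GRCm38.p6) for 27 of the 37 members. For Yars the window is set on a start 108 bases downstream of the start of the transcript whose expression is given. Of these, 6 promoters are printed because 4 of the genes carry the C/EBP-ATF response element and were higher with urate crystals in 5 to 8 of 8 experiments, while Qars and Cars2 carry none and were lower in 8 of 8. Capitals mark a C/EBP-ATF response element (TGATGNAA, either strand) or an E-box (CACGTG). The windows are chr8:111033592-111033891 (plus strand) for Aars, chr6:55037751-55038050 (plus strand) for Gars, chr4:129189653-129189952 (plus strand) for Yars, chr15:11399609-11399908 (minus strand) for Tars, chr9:108507755-108508054 (plus strand) for Qars and chr8:11550722-11551021 (minus strand) for Cars2, and the sequences run 5′ to 3′ on the gene's strand.
Aars: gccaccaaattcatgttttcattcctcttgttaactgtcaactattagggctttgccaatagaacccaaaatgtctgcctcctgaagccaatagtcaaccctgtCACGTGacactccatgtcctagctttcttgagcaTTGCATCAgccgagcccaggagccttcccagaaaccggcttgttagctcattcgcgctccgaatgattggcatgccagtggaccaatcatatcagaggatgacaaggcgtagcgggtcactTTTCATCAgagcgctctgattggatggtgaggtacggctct
Gars: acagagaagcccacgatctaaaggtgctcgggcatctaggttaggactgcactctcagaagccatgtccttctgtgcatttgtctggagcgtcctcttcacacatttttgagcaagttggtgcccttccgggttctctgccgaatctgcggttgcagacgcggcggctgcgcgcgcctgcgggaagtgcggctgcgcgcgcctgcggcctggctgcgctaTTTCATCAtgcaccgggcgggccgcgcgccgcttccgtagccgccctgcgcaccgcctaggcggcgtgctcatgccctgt
Yars: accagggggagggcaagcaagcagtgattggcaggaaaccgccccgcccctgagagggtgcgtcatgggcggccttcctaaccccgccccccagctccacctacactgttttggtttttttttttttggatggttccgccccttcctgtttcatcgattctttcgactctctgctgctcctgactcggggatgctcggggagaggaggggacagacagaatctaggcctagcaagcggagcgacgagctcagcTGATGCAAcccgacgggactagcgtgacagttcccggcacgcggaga
Tars: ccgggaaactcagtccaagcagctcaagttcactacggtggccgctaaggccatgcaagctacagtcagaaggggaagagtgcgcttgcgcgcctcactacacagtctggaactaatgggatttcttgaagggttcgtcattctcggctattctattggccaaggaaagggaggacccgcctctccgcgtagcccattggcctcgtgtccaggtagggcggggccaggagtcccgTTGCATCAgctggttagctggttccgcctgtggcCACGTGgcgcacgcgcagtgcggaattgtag
Qars: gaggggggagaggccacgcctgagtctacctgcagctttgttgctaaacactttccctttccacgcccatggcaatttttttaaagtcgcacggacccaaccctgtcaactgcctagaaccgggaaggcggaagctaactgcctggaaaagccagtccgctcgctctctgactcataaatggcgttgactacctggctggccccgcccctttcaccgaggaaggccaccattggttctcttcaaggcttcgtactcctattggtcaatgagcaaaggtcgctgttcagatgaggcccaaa
Cars2: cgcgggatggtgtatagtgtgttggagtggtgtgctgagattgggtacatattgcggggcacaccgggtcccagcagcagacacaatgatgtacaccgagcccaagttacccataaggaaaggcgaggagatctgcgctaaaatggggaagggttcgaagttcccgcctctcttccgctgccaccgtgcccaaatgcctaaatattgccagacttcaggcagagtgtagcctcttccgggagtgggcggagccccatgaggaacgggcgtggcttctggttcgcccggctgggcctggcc
The response element was found in 5 of 13 cytosolic promoters, those of Aars, Gars, Iars, Tars and Yars, and in 0 of 14 mitochondrial promoters. Across 27025 mouse genes 4.51% held it. In Aars the matches began 112 bases before and 10 bases after the start, and an E-box lay 146 bases before it. The E-box stood in the promoters of Aars, Farsb, Iars, Tars and Ears2, against 8.09% of all genes. The longer TCACGTGA, every match of which also holds an E-box, stood in Aars and Farsb, against 1.12% of all genes. The antioxidant response element was in none of the 27, against 3.45% of all genes. Eprs and Sars, higher with urate crystals in 8 and 5 experiments, held no response element, and Iars, which held it, was higher in 3 as deposited and in 8 after scaling. Rars, Cars and Nars had no entry. The printed promoters were chosen after the expression values were seen, and the matches describe letters in the window only.

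The study asked how the uptake of particles changes transcription in macrophages, with poly(A) RNA-seq and ChIP-seq. Particles were given at 250 µg/mL: monosodium urate crystals (MSUc), calcium pyrophosphate dihydrate crystals (CPPD), silica nanoparticles or aluminium hydroxide salt (alum), each set against phosphate-buffered saline (PBS). Macrophages were grown from mouse bone marrow with M-CSF, the macrophage growth factor. Cells from C57BL/6, Bhlhe41-/-, Bhlhe40-/- and Tfeb-Tg mice grew in DMEM with 16 ng/mL M-CSF, and those from Ampkα1-/- mice aged 7 to 8 weeks and congenic wild types grew in RPMI with 5 ng/mL. The time course had 2 MSUc and 2 PBS libraries at each of 10 minutes, 30 minutes, 1 hour, 2 hours and 5 hours. The particle experiment had 3 MSUc, 3 CPPD, 2 silica, 2 alum and 3 PBS libraries, for which the labels give no exposure time, as for all experiments below. The labels list 2 silica and 3 alum samples, but the table of this experiment has 3 silica and 2 alum columns; columns whose number matched a sample were used, and whether a column belongs to the other particle was not tested. The Tfe3 experiment had 3 libraries each of Tfe3KO and Tfe3WT cells with MSUc, CPPD, silica or PBS. The Tfeb experiment had 3 MSUc and 3 PBS libraries of TfebTg cells and 3 MSUc and 2 PBS libraries of TfebWT cells. The Bhlhe experiment had 2 MSUc and 2 PBS libraries each of cells labelled Bhlhe40 knockout, Bhlhe41 knockout and wild type. The AMPK experiment had 3 MSUc and 3 PBS libraries each of Ampka1KO and Ampka1WT cells. In the SGC0946 experiment cells received 1 µM SGC0946, an inhibitor of the histone methyltransferase DOT1L, since day 0 (3 MSUc and 2 PBS libraries) or vehicle (3 each). In the metformin experiment cells received metformin, a biguanide whose dose the labels do not give, or vehicle, with 3 MSUc and 3 PBS libraries each. In the Tfe3 experiment 12 samples titled Tfe3WT carry Tfe3KO in their genotype field, and the titles were followed. Neither the promoter that drives the Tfeb transgene nor the design of the deletions is in the labels.

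Libraries held 2118570 to 22114311 assigned reads, recovered from the deposited values. A cytosolic member had a median of 723 reads per library and a mitochondrial member 106, so the mitochondrial values carry more counting error. All 7 macrophage markers reached 1 TPM (reads per transcript length, scaled to a fixed library total) in every library. Of the markers of other cells, 5 of 6 for neutrophils (summed level 1.57 to 1572 TPM), 6 of 6 for dendritic cells (5.09 to 106 TPM), 2 of 5 for mast cells (0 to 29.3 TPM), 5 of 5 for fibroblasts (1.71 to 2980 TPM) and 4 of 5 for lymphocytes (0 to 8.87 TPM) reached 1 TPM in some library. Ly6g, Mcpt4, Tpsb2, Fcer1a and Cd3e were the ones that did not. Nothing states that replicates came from separate animals or cultures, so p-values measure the spread between these libraries only, which may be technical. In these bulk samples fewer cells of a type and less RNA per cell cannot be told apart. The transcripts of 3 targeted genes were not lost in PBS: Tfe3 was 66.7 to 70.0 TPM in PBS libraries labelled Tfe3KO and 94.2 to 104 TPM in those labelled Tfe3WT, and Prkaa1, which encodes Ampkα1, was 24.3 to 27.3 TPM in PBS libraries labelled Ampka1KO and 23.1 to 25.4 TPM in those labelled Ampka1WT. Bhlhe41, the third, was 49.8 and 46.3 TPM in PBS libraries labelled Bhlhe41 knockout and 55.9 and 49.8 TPM in wild type, and with MSUc 49.5 and 50.3 TPM in libraries labelled knockout and 94.9 and 90.1 TPM in wild type. Bhlhe40 was 5.59 and 6.92 TPM in Bhlhe40 knockout cells with PBS and 76.1 and 57.8 TPM in wild type, and Tfeb was 75.1 to 86.5 TPM in TfebTg cells with PBS and 44.4 and 43.7 TPM in TfebWT cells.

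With MSUc a set of cytosolic synthetases was higher, while Qars and several mitochondrial synthetases were lower. In 8 separate MSUc against PBS comparisons, 1 per experiment with no library shared, Rars, Aars, Eprs and Tars rose in all 8, and Qars, Cars2, Vars2, Hars2 and Pars2 fell in all 8. No cytosolic gene other than Qars fell in more than 5 experiments, and no mitochondrial gene rose in more than 2 as deposited. Calls are from limma on log2(TPM + 1) with Benjamini-Hochberg adjusted p under 0.05 over all genes tested, and differences are on that log2 scale, which understates changes of low genes. Of all genes tested, 49.3% passed at 5 hours (16.4% higher, 32.9% lower), 63.0% in the particle experiment (18.1% higher, 44.9% lower), 61.6% in Tfe3WT (20.0% higher, 41.6% lower) and 45.5% in TfebWT (12.6% higher, 32.9% lower). The shares were 60.5% in Bhlhe wild type (17.1% higher, 43.4% lower), 63.7% in Ampka1WT (19.7% higher, 43.9% lower), 55.4% in the SGC0946 vehicle cells (17.8% higher, 37.7% lower) and 53.9% in the metformin vehicle cells (19.6% higher, 34.3% lower). In these 8 the median gene lay between −0.30 and −0.16 as deposited, so each call was repeated after scaling by the median of ratios, which centres the median gene near 0. Under that scaling too these 9 genes were called in 8 of 8 experiments, except Hars2 (6 of 8) and Pars2 (5 of 8), and Yars2 was then called higher in 6. One TfebWT library is MSUc by its title and PBS by its treatment field. In that library Rars was 199.5 TPM, beside 199.8 and 192.4 TPM in the other MSUc libraries and 66.1 and 59.9 TPM in PBS. Its Qars level was 43.4 TPM, beside 44.0 and 40.3 TPM with MSUc and 69.5 and 71.1 TPM with PBS. With it counted as PBS, a group that then held both levels, no member was called in TfebWT. Without TfebWT PBS replicate 2 the 20 calls in TfebWT became 11.

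**Figure D1:**
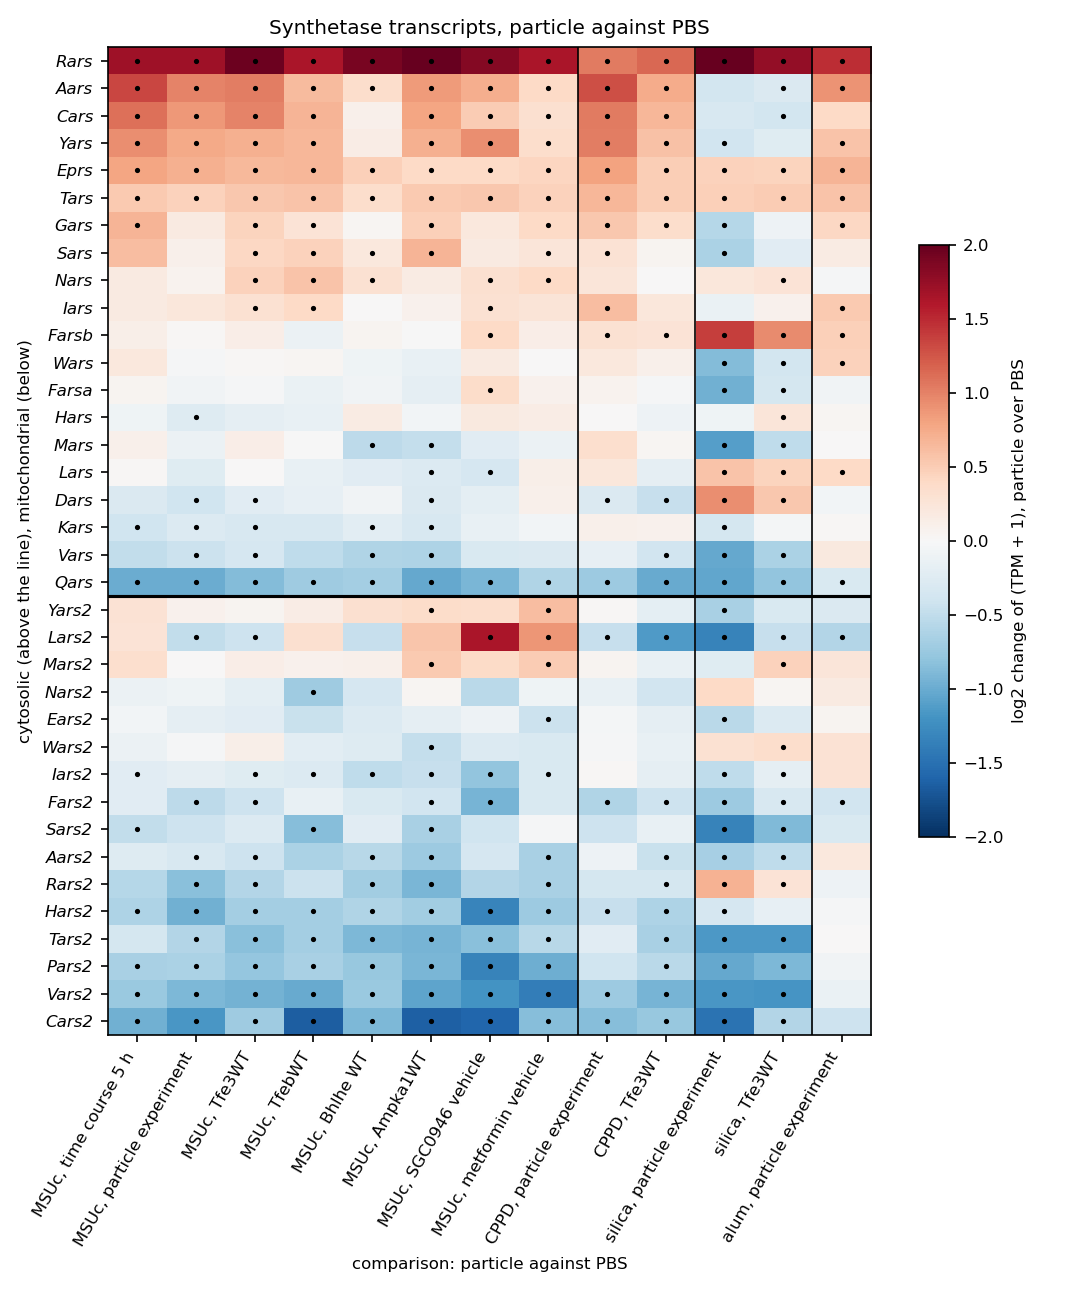
Difference on the log2(TPM + 1) scale, particle over PBS (colour), of the synthetases reported (rows) for MSUc in 8 experiments and for CPPD, silica and alum (columns), with cytosolic members above the line, mitochondrial members under it and a dot where the call passed. With MSUc Rars is the darkest red row (median 1.77), Qars the darkest blue cytosolic row (median −0.89), and Cars2 and Vars2 are blue in all 8 columns.

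Rars, which charges arginine and belongs to the multisynthetase complex, had the largest median difference of the members, 1.77 with a range of 1.63 to 2.02. In Ampka1WT cells it stood at 143, 146 and 128 TPM with MSUc and 38.3, 31.2 and 31.3 TPM with PBS. In Bhlhe wild-type cells it stood at 191 and 188 TPM with MSUc and 48.5 and 51.6 TPM with PBS. The groups did not overlap in any of the 8 experiments. Aars (alanine) had a median difference of 0.79, Eprs 0.56 and Tars (threonine) 0.52. Cars (cysteine) and Yars (tyrosine) rose in 7 of 8, with medians of 0.73 and 0.71, and in 8 of 8 after median-of-ratios scaling. Gars (glycine), Sars (serine) and Nars (asparagine) rose in 5 of 8 as deposited and in 8 of 8 after that scaling, and Iars (isoleucine) in 3 and 8.

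The complex did not move as a unit. Qars (glutamine) fell in 8 of 8 experiments, with a median of −0.89 and a range of −1.03 to −0.60. In Ampka1WT cells it was 42.7, 40.7 and 40.9 TPM with MSUc and 87.9, 81.8 and 87.2 TPM with PBS, without overlap. Kars (lysine) fell in 5 experiments as deposited and in 0 after median-of-ratios scaling, where its sign turned in 3 of those 5. Dars (aspartic acid) fell in 3, Mars (methionine) and Lars (leucine) in 2 each, and after that scaling none of these 3 was called lower in any experiment, while Dars and Lars were higher in 2 and Mars in 1. The median of the members' median differences was −0.15 over the 8 enzymes of the complex and 0.32 over the 12 other cytosolic members. The scaffold genes differed too: at 5 hours Eef1e1 rose to 27.6 ± 2.51 TPM with MSUc, against 9.54 ± 0.938 TPM with PBS (SD, n = 2 each, limma with Benjamini-Hochberg adjusted p = 3.75e-06), Aimp1 fell by 0.42 on the log2 scale (adjusted p = 0.00726) and Aimp2 differed by −0.04 (adjusted p = 0.803).

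Of the mitochondrial members, Cars2 had a median difference of −1.07 and Vars2 of −0.97. Cars2 was 2.75, 3.13 and 3.94 TPM with MSUc and 11.7, 12.2 and 12.6 TPM with PBS in Ampka1WT cells, without overlap. Tars2 fell in 7 of 8 and in 5 of 8 after median-of-ratios scaling, and Rars2 in 5 and 4. Iars2 fell in 7 of 8 as deposited but in none after that scaling. Yars2 and Mars2 had positive differences in all 8 and were called higher in 2 each. Lars2 rose in 2 experiments and fell in 2. For alanine, arginine, cysteine and threonine the cytosolic gene rose in at least 7 of 8 experiments and the mitochondrial gene fell in at least 5 as deposited; after median-of-ratios scaling Aars2 fell in 2 and Rars2 in 4. Glutamine has no separate mitochondrial enzyme among the members, since mitochondria charge its tRNA by way of glutamate.

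Of 10 other aminoacylation genes, among them the glutamyl-tRNA amidotransferase subunits Gatb and Gatc, between 4 and 8 fell with MSUc in the 8 experiments, beside 32.9% to 44.9% of all genes, and at most 1 rose. These counts are as deposited and were not repeated after scaling. Gatc, at 5 hours, was 12.8 ± 1.09 TPM with MSUc and 31.3 ± 0.559 TPM with PBS (SD, n = 2 each), and its drop passed (limma, Benjamini-Hochberg adjusted p = 3.16e-06). Of the 18 to 20 integrated stress response genes tested, 12 to 17 rose in each of the 8. At 5 hours these included Ppp1r15a (2.47), Slc7a11 (5.04), Slc3a2 (1.84) and Chac1 (3.71), where the values are log2 differences. The summed macrophage marker level was 18347 to 20104 TPM with MSUc and 27749 to 30508 TPM with PBS in the particle experiment, and its part in these results was not tested.

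The time course placed Rars first. It was 58.7 and 53.8 TPM with MSUc and 42.0 and 46.2 TPM with PBS at 1 hour, 102 and 90.3 TPM with MSUc and 40.9 and 37.9 TPM with PBS at 2 hours, and 135 and 137 TPM with MSUc and 41.1 and 41.4 TPM with PBS at 5 hours. The groups did not overlap at any of these times. The log2 differences were 0.34 ± 0.08 (adjusted p = 0.0358), 1.26 ± 0.08 (adjusted p = 2.99e-07) and 1.70 ± 0.08 (adjusted p = 1.23e-08), each ± SE, by limma with Benjamini-Hochberg adjustment. No member was called at 10 minutes, when 0.0567% of genes passed (0.0486% higher, 0.0081% lower), or at 30 minutes, when 0.68% passed (0.68% higher, 0% lower); at an unadjusted p under 0.05, 285 and 639 genes passed. The 2 members with the smallest p were Hars2 (−0.22) and Fars2 (−0.30) at 10 minutes and Rars2 (0.45) and Tars2 (0.26) at 30 minutes, none of them called. At 1 hour Rars was the single member called, among 3.28% of all genes (2.33% higher, 0.947% lower). That call was lost when any 1 of the 4 libraries at 1 hour (MSUc replicates 1 and 2, PBS replicates 1 and 2) was left out. The Rars calls at 2 and 5 hours were not. The fit held no term for the replicate number. A pairing of libraries chosen after seeing the data gave more member calls at 1 and 2 hours, as given at the end.

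**Figure D2:**
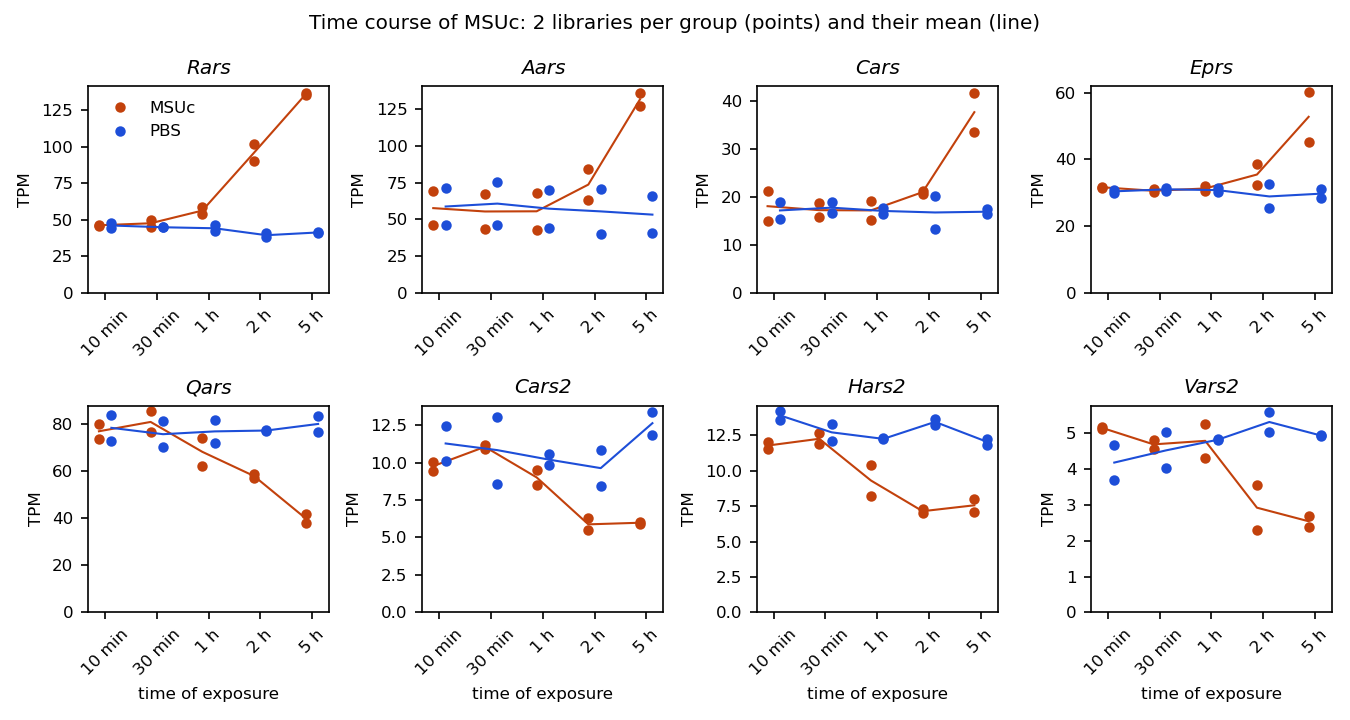
TPM of 8 synthetases in the time course at 10 minutes, 30 minutes, 1 hour, 2 hours and 5 hours, with 1 point per library and lines through the means of MSUc and PBS libraries (n = 2 each). Rars separates from 1 hour on and reaches 135 and 137 TPM with MSUc at 5 hours, against 41.1 and 41.4 TPM with PBS, while Qars is lower with MSUc, at 41.9 and 38.1 TPM, than with PBS.

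At 2 hours 33.5% of all genes passed (11.2% higher, 22.3% lower), and Rars was the only cytosolic member to rise while Qars was the only one to fall. Of the mitochondrial members 5 fell and 0 rose: Hars2 (−0.83), Pars2 (−0.74), Vars2 (−0.70), Cars2 (−0.62) and Tars2 (−0.48). Hars2 was 7.30 and 6.99 TPM with MSUc and 13.2 and 13.7 TPM with PBS. Qars was 57.1 and 59.02 TPM with MSUc and 77.3 and 77.5 TPM with PBS. Both were lower in each MSUc library than in any PBS library. After median-of-ratios scaling 2 cytosolic members rose, 1 fell, 1 mitochondrial member rose and 3 fell. Without MSUc replicate 1 the total of members called fell to 3. The Qars call was lost without MSUc replicate 1, PBS replicate 1 or PBS replicate 2 (limma, Benjamini-Hochberg adjusted p of 0.0562 to 0.0749), and the Vars2 call without MSUc replicate 1 (0.0605).

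By 5 hours 7 cytosolic members had risen and 2 had fallen, and 0 mitochondrial members had risen and 7 had fallen. After median-of-ratios scaling the counts were 13 and 1 cytosolic, and 2 and 4 mitochondrial. Aars rose to 128 and 136 TPM with MSUc, against 65.7 and 40.7 TPM with PBS, a log2 difference of 1.33. Cars was 41.8 and 33.7 TPM with MSUc and 17.4 and 16.4 TPM with PBS. Yars was 26.5 and 19.5 TPM with MSUc and 11.6 and 11.4 TPM with PBS. All 3 showed no overlap, but the Aars values of the PBS libraries differed between replicates throughout the time course. Qars fell to 41.9 and 38.1 TPM with MSUc, against 76.9 and 83.5 TPM with PBS, and Cars2 to 5.91 and 6.06 TPM, against 13.4 and 11.9 TPM with PBS. The members' median difference was 0.18 for cytosolic and −0.26 for mitochondrial genes, beside −0.23 for all genes, and after scaling 0.43 and −0.06. The summed level of the 20 cytosolic genes was 976 to 1064 TPM with MSUc and 739 to 809 TPM with PBS. That of the mitochondrial genes without Lars2 was 99.4 to 104 TPM with MSUc and 132 to 136 TPM with PBS. With Lars2, which varied between replicates, the mitochondrial sum was 139 to 218 TPM with MSUc and 165 to 224 TPM with PBS, with overlap.

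The particles did not act alike on the synthetases. Beside MSUc, with 6 cytosolic members higher and 5 lower and 0 mitochondrial members higher and 10 lower (12 and 1, and 1 and 5, after median-of-ratios scaling), CPPD gave 10 and 2, and 0 and 6, among 52.4% of all genes called (16.6% higher, 35.8% lower; 16 and 1, and 1 and 4, after scaling). Alum gave 10 and 1, and 0 and 2, among 46.2% of genes (27.1% higher, 19.2% lower; 8 and 1, and 0 and 4, after scaling). Silica gave 6 and 9, and 1 and 12, among 68.4% of genes (24.4% higher, 43.9% lower; 8 and 5, and 3 and 8, after scaling). Each of these counts shares the same 3 PBS libraries. With alum the difference of a gene also went with its transcript length (Spearman's rho of 0.486 across 12314 genes, which are not independent), and the part of this in the alum values was not tested.

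**Figure D3:**
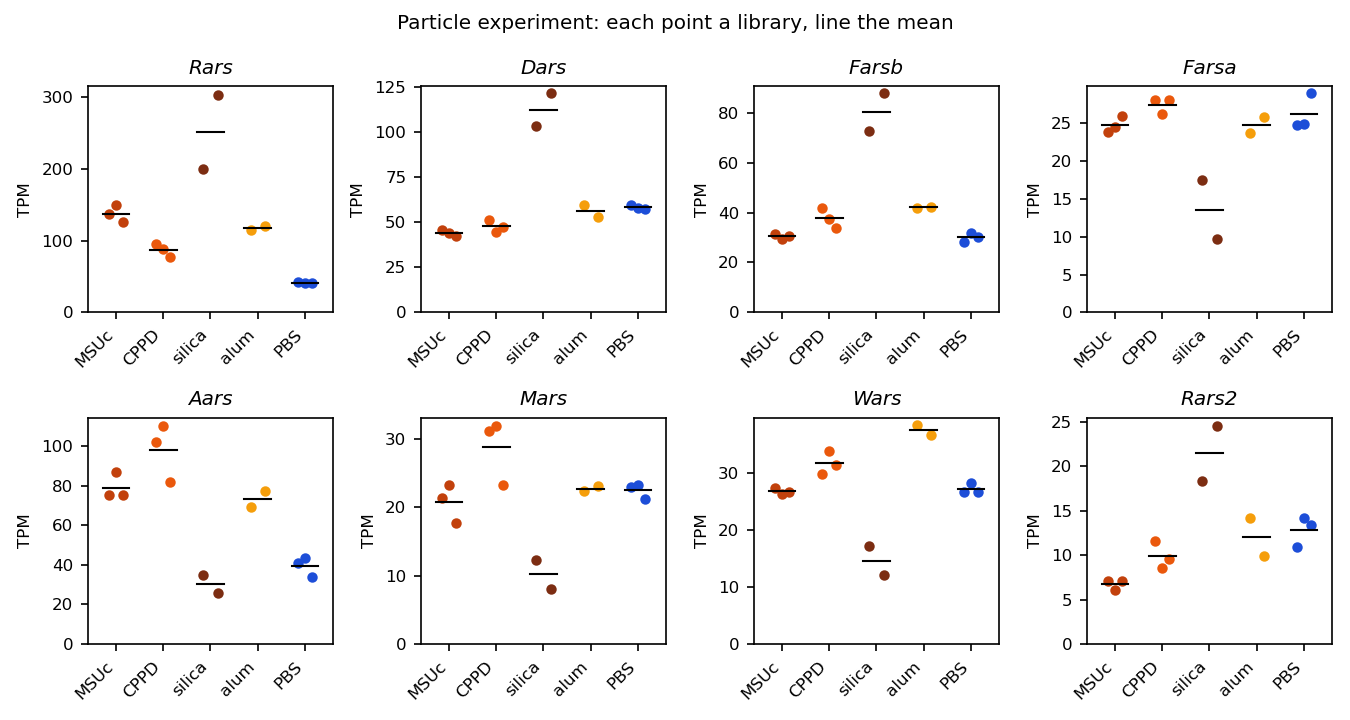
TPM of 8 synthetases in the particle experiment, with 1 point per library for MSUc (n = 3), CPPD (n = 3), silica (n = 2), alum (n = 2) and PBS (n = 3). Silica stands apart: Rars, Dars, Farsb and Rars2 are highest and Farsa, Mars and Wars lowest in its 2 libraries.

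Rars rose with all 4 particles. It was 137, 149 and 126 TPM with MSUc, 95.2, 87.9 and 76.9 TPM with CPPD, 199.8 and 303 TPM with silica, 115 and 119.9 TPM with alum, and 42.6, 40.8 and 41.1 TPM with PBS. Every particle library lay above every PBS library. The log2 differences from PBS were 1.70 with MSUc, 1.04 with CPPD, 2.54 with silica and 1.48 with alum. Qars fell with all 4, with differences of −0.998 with MSUc, −0.72 with CPPD, −1.04 with silica and −0.30 with alum. Eprs and Tars also rose with all 4.

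Other cytosolic genes split by particle. Aars was 75.1, 86.8 and 75.1 TPM with MSUc, 102, 110.2 and 82.1 TPM with CPPD, 34.7 and 25.9 TPM with silica, 69.3 and 77.5 TPM with alum, and 40.9, 43.3 and 33.6 TPM with PBS. The MSUc, CPPD and alum libraries lay above all PBS libraries, whereas the silica and PBS libraries overlapped and did not pass (−0.37, limma with Benjamini-Hochberg adjusted p = 0.0536). Farsb was 31.3, 29.6 and 30.5 TPM with MSUc, 41.8, 37.4 and 33.8 TPM with CPPD, 72.8 and 87.7 TPM with silica, 42.0 and 42.2 TPM with alum, and 28.2, 32.0 and 30.2 TPM with PBS, so silica gave its highest values. Farsa, its partner subunit, was 17.4 and 9.63 TPM with silica and 24.7, 24.8 and 28.9 TPM with PBS. With silica the Farsb difference was 1.38 ± 0.11 (adjusted p = 1.12e-06) and the Farsa difference −0.95 ± 0.18 (adjusted p = 0.000431), each ± SE, by limma with Benjamini-Hochberg adjustment. Neither subunit overlapped between silica and PBS.

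Dars rose with silica, to 104 and 122 TPM, against 59.9, 57.9 and 57.5 TPM with PBS, and fell with MSUc, to 45.7, 44.1 and 42.2 TPM. Mitochondrial Rars2 showed the same split, at 18.3 and 24.6 TPM with silica, 7.12, 6.11 and 7.06 TPM with MSUc, and 10.9, 14.2 and 13.4 TPM with PBS. Mars (−1.10), Wars (tryptophan, −0.87) and Sars (−0.64) fell with silica and were not called with MSUc; the Sars call was lost after median-of-ratios scaling. Among mitochondrial members Sars2 (−1.34), Lars2 (−1.33) and Tars2 (−1.15) fell further with silica than Hars2 (−0.34), which turned in sign after median-of-ratios scaling.

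The direct comparison of silica with MSUc was added after these values were seen, and 63.7% of all genes passed (30.3% higher, 33.3% lower). Of the cytosolic members 4 were higher and 11 lower with silica, and of the mitochondrial members 4 higher and 6 lower. Aars (−1.37), Cars (−1.19) and Yars (−1.14) were lower with silica, and Farsb (1.36), Dars (1.33) and Rars2 (1.52) higher. The same comparison in Tfe3WT cells, with other libraries and 57.1% of genes called (33.1% higher, 23.9% lower), gave 5 cytosolic members higher and 10 lower, and 3 mitochondrial members higher and 3 lower (4 and 13, and 3 and 4, after median-of-ratios scaling). Its differences had the same sign for these 6 genes: −1.31 for Aars, −1.36 for Cars, −0.96 for Yars, 0.81 for Farsb, 0.77 for Dars and 0.85 for Rars2. Rars differed in sign, at 0.84 in the particle experiment and −0.20 in Tfe3WT cells, both called, and in Tfe3WT cells its groups overlapped. Of the integrated stress response list, 14 of 18 and 15 of 20 genes were lower with silica than with MSUc in the 2 experiments, and 1 was higher in each.

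Silica against PBS in Tfe3WT cells, where 65.8% of genes passed (28.8% higher, 37.1% lower), raised 8 cytosolic members and lowered 7, and raised 3 mitochondrial members and lowered 9 (8 and 6, and 3 and 6, after scaling). Farsb was 52.6, 54.1 and 54.1 TPM with silica and 26.2, 30.2 and 25.8 TPM with PBS, a difference of 0.95. Farsa was 20.2, 20.9 and 19.1 TPM with silica and 25.5, 24.6 and 27.5 TPM with PBS, a difference of −0.35. The subunits thus moved in opposite directions in both experiments, without overlap. Neutrophil markers summed to 232 to 333 TPM with silica and 40.7 to 94.6 TPM with PBS in the particle experiment, and 1205 to 1572 TPM with silica and 232 to 426 TPM with PBS in Tfe3WT cells, while Ly6g stayed below 1 TPM. Macrophage markers summed to 34426 to 39199 TPM with silica and 27749 to 30508 TPM with PBS in the particle experiment. Their part in the silica values was not tested.

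Rars was lower with CPPD than with MSUc in both experiments that had both crystals. In this comparison, also added after the values were seen, the difference was −0.66 in the particle experiment (23.6% of genes called, 14.8% higher and 8.86% lower) and −0.81 in Tfe3WT cells (22.0% called, 9.85% higher and 12.1% lower). In Tfe3WT cells it was 97.0, 106.7 and 92.0 TPM with CPPD and 193, 166 and 162 TPM with MSUc, without overlap. In the particle experiment 6 cytosolic members were higher and 1 lower with CPPD, and 3 mitochondrial members were higher and 0 lower (2 and 1, and 2 and 0, after scaling), with 4 to 10 called in all when 1 library was left out. The total of 10 fell by more than 1.5 times without CPPD replicate 1, MSUc replicate 2 or MSUc replicate 3. Kars (0.37) and Iars (0.40) were among the higher genes. In Tfe3WT cells 1 cytosolic member was higher and 4 lower, and 0 mitochondrial members were higher and 1 lower. Against PBS, CPPD in Tfe3WT cells gave 8 cytosolic members higher and 3 lower, and 0 mitochondrial members higher and 10 lower, among 60.2% of genes (18.5% higher, 41.7% lower; 15 and 1, and 0 and 6, after scaling). All 14 interferon-stimulated genes listed rose with CPPD in both experiments, with medians of 3.20 and 2.67. Wars, known as an interferon-inducible synthetase, was 29.9, 33.9 and 31.4 TPM with CPPD and 26.6, 28.3 and 26.6 TPM with PBS in the particle experiment. Its CPPD libraries lay above its PBS libraries, but the difference of 0.22 did not pass (limma with Benjamini-Hochberg adjusted p = 0.121).

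Metformin raised most cytosolic synthetases without any particle. In PBS 14 of 20 cytosolic members rose and 1 fell, and 2 of 17 mitochondrial members rose and 1 fell, among 39.5% of all genes called (23.2% higher, 16.3% lower; 14 and 1, and 2 and 2, after scaling). The median difference was 0.66 over cytosolic and 0.03 over mitochondrial members, beside 0.08 over all genes. Aars was 237, 239.5 and 235 TPM with metformin and 58.7, 54.5 and 50.6 TPM with vehicle, a difference of 2.10 ± 0.08 (SE, limma with Benjamini-Hochberg adjusted p = 5.41e-09). Wars was 82.3, 81.2 and 72.2 TPM with metformin and 26.6, 26.4 and 30.4 TPM with vehicle. Eprs was 99.7, 99.9 and 100.0 TPM with metformin and 41.01, 36.2 and 36.2 TPM with vehicle. In none of the 3 did the groups overlap. Gars (1.25), Sars (1.18) and Yars (1.01) followed, and Qars fell by 0.26.

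**Figure D4:**
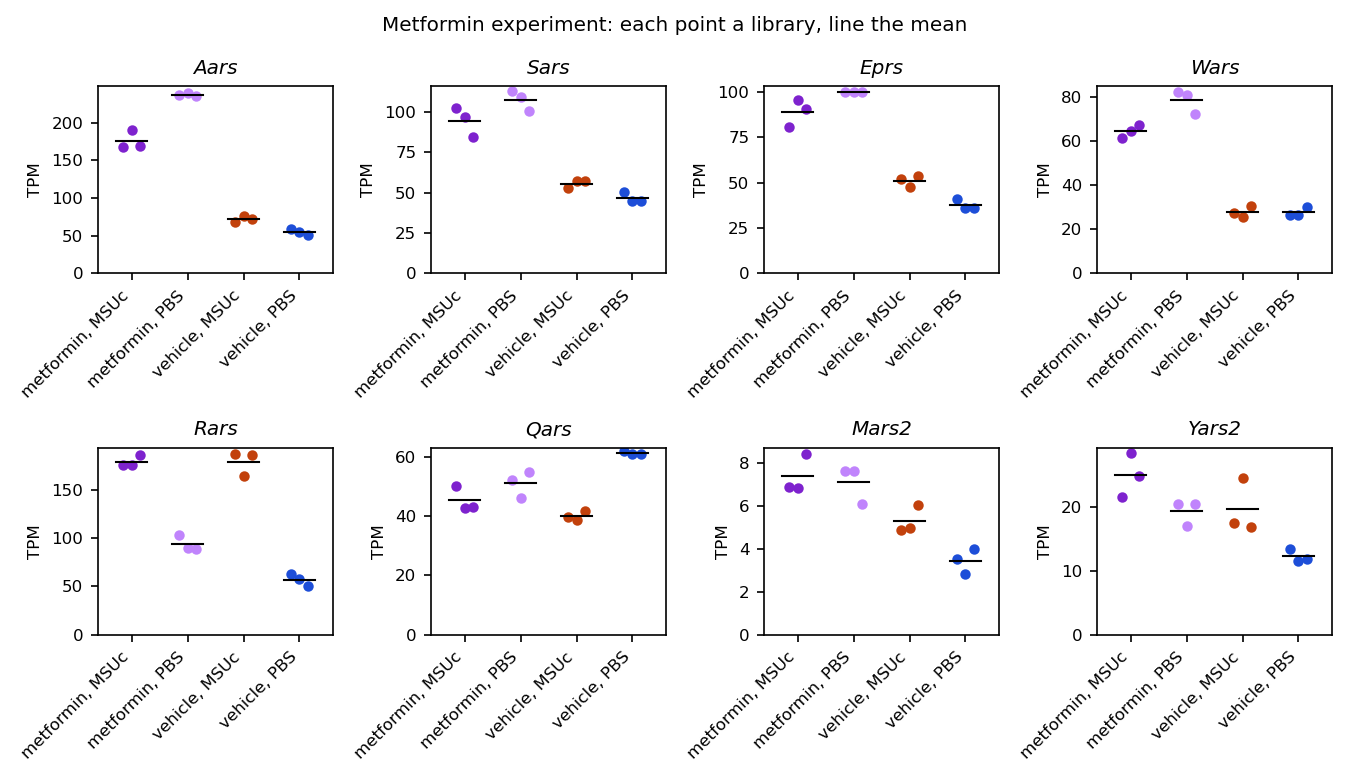
TPM of 8 synthetases in the metformin experiment, with 1 point per library and 3 libraries in each of metformin and vehicle with MSUc and with PBS. Aars reaches 235 TPM or more in all metformin PBS libraries, against 50.6 to 58.7 TPM with vehicle, while Rars is highest in the MSUc libraries of both.

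Rars did not lead here. It was 103, 90.2 and 88.7 TPM with metformin and 62.6, 58.0 and 50.2 TPM with vehicle in PBS, a difference of 0.71, without overlap. Of the mitochondrial members, Mars2 rose to 7.64, 7.66 and 6.08 TPM with metformin, against 3.53, 2.84 and 4.01 TPM with vehicle. Yars2 rose by 0.61, and Tars2 fell by 0.38. Of 20 integrated stress response genes 19 rose and 0 fell in PBS. Among them were Trib3, at 193 ± 2.54 TPM with metformin and 7.91 ± 1.39 TPM with vehicle (SD, n = 3 each), Asns (1.90), Ppp1r15a (1.82) and Atf4 (1.61). Others rose more than Asns, such as Chac1, at 25.1, 28.0 and 23.8 TPM with metformin and 2.89, 4.07 and 1.75 TPM with vehicle. Macrophage markers summed to 11315 to 12884 TPM with metformin and 22816 to 25677 TPM with vehicle in PBS. Most of the sum was Lyz2, at 8949, 7696 and 9272 TPM with metformin and 20298, 18987 and 21998 TPM with vehicle. Cd68 alone went the other way, at 3007, 3085 and 3054 TPM with metformin and 2000, 2233 and 2118 TPM with vehicle. The part of these markers was not tested.

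With MSUc, metformin against vehicle gave 11 cytosolic members higher and 0 lower, and 5 mitochondrial members higher and 0 lower, among 43.6% of genes (29.6% higher, 14% lower; 8 and 1, and 3 and 2, after scaling). Aars was 168, 189.9 and 169 TPM with metformin and 67.7, 76.8 and 72.6 TPM with vehicle. Rars was 176, 176 and 185 TPM with metformin and 187, 164 and 185 TPM with vehicle, so its groups overlapped. Vars2 was 3.73, 3.66 and 3.50 TPM with metformin and 1.33, 1.24 and 1.14 TPM with vehicle, a difference of 1.05. The MSUc response itself differed between metformin and vehicle for 9 members among 12.2% of genes (7.52% higher, 4.72% lower): Aars (−0.83), Rars (−0.71), Cars (−0.65), Eprs (−0.59), Tars (−0.45), Sars (−0.43) and Gars (−0.42) had a more negative MSUc difference with metformin, and Qars (0.43) and Vars2 (0.96) a more positive one (0 cytosolic members more positive and 9 more negative, and 1 and 0 mitochondrial, after scaling). In metformin-treated cells every MSUc library lay below every PBS library for Aars, Cars and Eprs, the groups overlapped for Tars, Sars and Gars, and every MSUc library lay above every PBS library for Rars. The Qars call was lost after scaling, and the Vars2 call was lost without the filter on low values and when any 1 library other than metformin PBS replicate 2 was left out (limma, Benjamini-Hochberg adjusted p of 0.0501 to 0.0847). The total of 9 became 4 without vehicle MSUc replicate 2 or 3, vehicle PBS replicate 3 or metformin PBS replicate 1, and 5 without vehicle PBS replicate 2 or metformin PBS replicate 2.

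The libraries labelled Ampka1KO carried higher cytosolic synthetase levels than those labelled Ampka1WT. In PBS 18 of 20 cytosolic members were higher and 1 lower, and 5 mitochondrial members were higher and 1 lower, among 47.7% of genes (33.8% higher, 13.8% lower; 15 and 1, and 4 and 3, after scaling). Gars was 74.0, 88.4 and 94.97 TPM in libraries labelled Ampka1KO and 37.7, 30.3 and 36.5 TPM in those labelled Ampka1WT, a difference of 1.27 ± 0.11 (SE, limma with Benjamini-Hochberg adjusted p = 1.99e-06). Lars was 34.2, 36.6 and 44.8 TPM in Ampka1KO and 20.1, 17.7 and 18.6 TPM in Ampka1WT libraries. Both were without overlap. Yars differed by 1.22, Tars by 0.88 and Rars by 0.89, and Qars by −0.38. Of the 3 scaffold genes Eef1e1 (1.59) and Aimp2 (1.07) were higher.

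With MSUc 16 cytosolic members were higher and 0 lower in libraries labelled Ampka1KO, and 12 mitochondrial members were higher and 1 lower, among 71.8% of genes (51.6% higher, 20.2% lower), whose median lay at 0.39 (13 and 3, and 8 and 3, after scaling). Kars was 118, 97.6 and 108 TPM in Ampka1KO and 29.2, 34.5 and 32.6 TPM in Ampka1WT libraries, a difference of 1.72. Iars2 was 34.8, 31.4 and 35.8 TPM in Ampka1KO and 13.1, 15.2 and 15.6 TPM in Ampka1WT libraries, and Wars2 was 5.65, 5.62 and 5.72 TPM in Ampka1KO and 1.56, 1.77 and 2.03 TPM in Ampka1WT libraries. None of the 3 overlapped. The MSUc response differed for 21 members among 50.6% of genes (34.7% higher, 15.9% lower), 10 cytosolic members with a more positive and 3 with a more negative difference, and 8 and 0 mitochondrial (4 and 4, and 4 and 1, after scaling). Qars (1.06) is an example: it was 71.1, 64.8 and 64.8 TPM with MSUc and 55.9, 68.1 and 74.3 TPM with PBS in libraries labelled Ampka1KO, so that the groups overlapped, whereas in those labelled Ampka1WT every MSUc library lay below every PBS library. Rars (−0.79), Aars (−0.80) and Sars (−0.50) had a more negative MSUc difference.

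These libraries also differed in other cell type markers. Fibroblast markers summed to 2369 to 2980 TPM with MSUc and 834 to 1359 TPM with PBS in libraries labelled Ampka1KO, and to 66.8 to 217 TPM with MSUc and 77.3 to 143 TPM with PBS in those labelled Ampka1WT. Macrophage markers summed to 7275 to 9532 TPM in Ampka1KO and 24719 to 30027 TPM in Ampka1WT libraries with MSUc. In PBS Lyz2 was 22443, 19739 and 20440 TPM in Ampka1KO and 32515, 34917 and 36061 TPM in Ampka1WT libraries. Csf1r was 527, 623 and 666 TPM in Ampka1KO and 936, 1077 and 1189 TPM in Ampka1WT libraries with PBS. Mertk went the other way, at 25.0, 19.4 and 18.1 TPM in Ampka1KO and 15.8, 15.4 and 16.4 TPM in Ampka1WT libraries with PBS. Of 19 integrated stress response genes 17 were higher in PBS, and 0 lower, among them Slc7a5 (2.43) and Slc3a2 (1.04). The part of the marker differences in the synthetase levels was not tested.

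**Figure D5:**
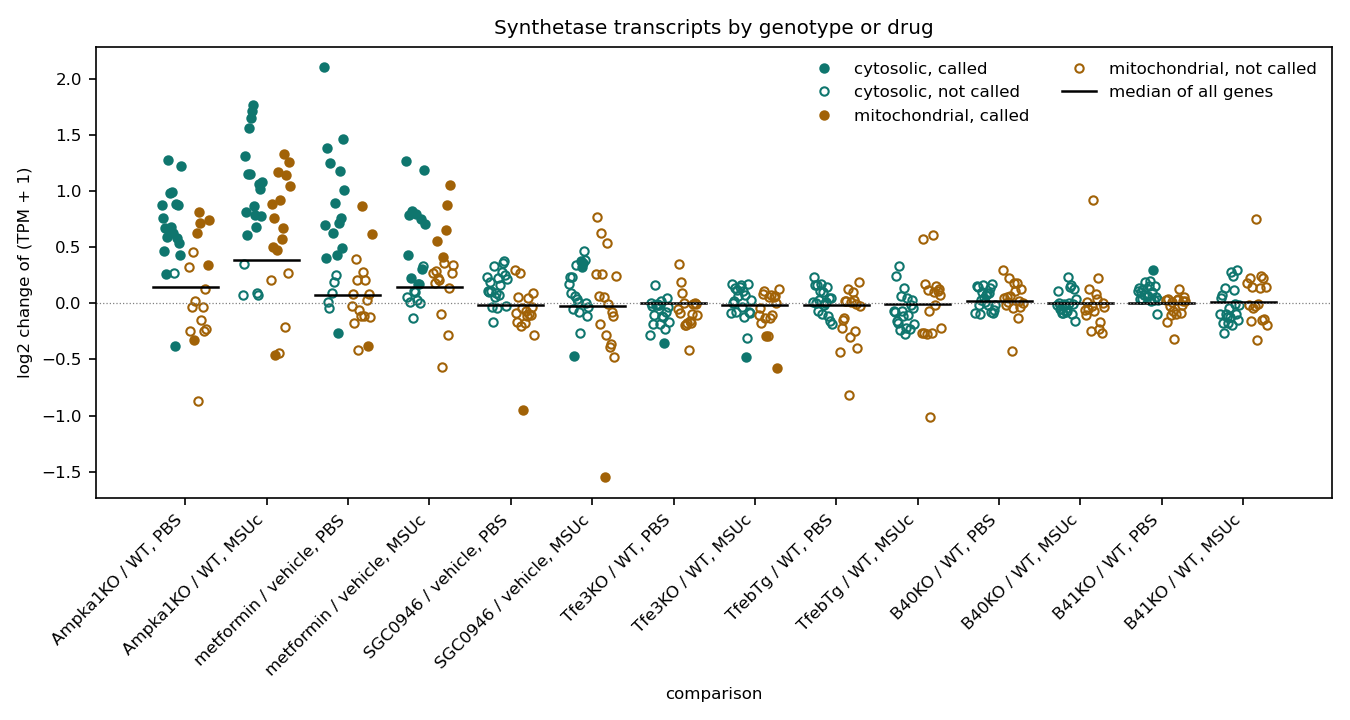
Log2 difference of each of the 37 synthetases (points, by compartment) for each genotype or drug against its control, with a line at the median of all genes tested. The median of the cytosolic points lies above the all-gene median for metformin and Ampka1KO in PBS (0.66 and 0.66, beside 0.08 and 0.15), although Qars lies below it in both.

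The genotypes of the transcription factors moved few members. Rars was lower in libraries labelled Tfe3KO, at 37.7, 30.01 and 34.8 TPM, against 44.8, 45.8 and 40.7 TPM in Tfe3WT with PBS (−0.35, among 2.37% of genes called, 0.985% higher and 1.38% lower), at 118, 129 and 126 TPM against 193, 166 and 162 TPM with MSUc (−0.47, 10.7% called, 4.10% higher and 6.63% lower), and at 71.7, 70.9 and 73.2 TPM against 97.0, 106.7 and 92.0 TPM with CPPD (−0.45, 8.1% called, 3.45% higher and 4.64% lower). It did not overlap between the genotypes in any of the 3. The PBS call was lost without Tfe3KO replicate 2 or 3 or Tfe3WT replicate 1 or 2. With silica, among 12.5% of genes (3.77% higher, 8.69% lower), Sars (−0.46), Aars (−0.27), Farsa (−0.25), Lars2 (−0.73) and Iars2 (−0.43) were lower and Rars was not called. Iars2 was also lower with MSUc (−0.29) and CPPD (−0.33), and Wars2 with MSUc (−0.57). The Iars2 call with MSUc was lost without Tfe3KO replicate 2 or 3 or Tfe3WT replicate 2 or 3 (limma, Benjamini-Hochberg adjusted p of 0.0549 to 0.075), and both calls with MSUc were lost with only the compared groups in the fit (0.0831 for Iars2, 0.0625 for Wars2). Iars2 was 15.4, 14.3 and 12.7 TPM in Tfe3KO and 19.0, 18.9 and 20.2 TPM in Tfe3WT cells with silica. With silica the total of 5 calls became 3 after median-of-ratios scaling, which lost Aars and Farsa. It lay between 3 and 5 when 1 library was left out, with Tfe3KO replicate 1 and Tfe3WT replicates 1, 2 and 3 the ones that moved it. The Aars call was lost without any 1 silica library (limma, Benjamini-Hochberg adjusted p of 0.0502 to 0.174). The Farsa call was lost without any 1 other than Tfe3KO replicate 3 (0.0553 to 0.177). Both were also lost without the filter on low values (0.062 for Aars, 0.0593 for Farsa) and with only the compared groups in the fit (0.095 and 0.125). With CPPD 4 members were called after scaling, 1 of them higher. No member differed in its response to MSUc, CPPD or silica between Tfe3KO and Tfe3WT, where 1.73% (0.414% higher, 1.31% lower), 0.93% (0.336% higher, 0.594% lower) and 1.52% (0.461% higher, 1.06% lower) of genes passed. At an unadjusted p under 0.05 by limma, 1576, 1500 and 2111 genes did.

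No member was called between TfebTg and TfebWT in PBS (0.717% of genes, 0.459% higher and 0.259% lower), in MSUc (3.48%, 2.04% higher and 1.43% lower) or in the MSUc response (0.1%, 0.0751% higher and 0.025% lower). Farsb in MSUc had the smallest p of the cytosolic members, at 58.1, 52.9 and 54.9 TPM in TfebTg and 48.7, 41.4 and 40.95 TPM in TfebWT cells (0.34, limma with Benjamini-Hochberg adjusted p = 0.0827). No member was called in Bhlhe40 knockout cells against wild type in PBS (0.0824% of genes, 0.0494% higher and 0.0329% lower), MSUc (0.0165%, all lower) or the MSUc response (0.00824%, all lower). In libraries labelled Bhlhe41 knockout Rars was higher in PBS, at 63.8 and 59.6 TPM, against 48.5 and 51.6 TPM in wild type (0.30, limma with Benjamini-Hochberg adjusted p = 0.033, 2.76% of genes called, 1.76% higher and 0.997% lower). That call was lost after median-of-ratios scaling and when any 1 of the 4 libraries was left out. None was called in MSUc (1.33% of genes, 0.848% higher and 0.478% lower) or in the MSUc response (0.132%, 0.00824% higher and 0.124% lower). At an unadjusted p under 0.05, between 622 and 2153 genes passed in these 9 comparisons.

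Lars2, which encodes the mitochondrial leucine enzyme, was lower with SGC0946. In other experiments its level varied widely between replicates, for example at 70.1, 55.1 and 18.3 TPM in TfebWT cells with MSUc. In libraries labelled Ampka1KO with PBS it was 177, 87.7 and 259 TPM. With MSUc Lars2 was 46.0, 50.6 and 44.5 TPM with SGC0946 and 153, 123 and 144 TPM with vehicle, a difference of −1.55 ± 0.12 (SE, limma with Benjamini-Hochberg adjusted p = 9.73e-05). With PBS it was 24.9 and 20.2 TPM with SGC0946 and 47.3, 37.8 and 48.8 TPM with vehicle, a difference of −0.95. Neither pair of groups overlapped, and Lars2 was the single member called in PBS, among 0.673% of genes (0.438% higher, 0.235% lower). In MSUc, where 16.6% of genes passed (7.39% higher, 9.24% lower), Nars (0.38), Rars (0.35) and Qars (0.32) were higher and Farsb (−0.47) and Lars2 lower (7 cytosolic higher, 1 lower and 1 mitochondrial lower after scaling). Farsb was 29.0, 35.9 and 29.7 TPM with SGC0946 and 43.8, 43.1 and 44.7 TPM with vehicle. The difference of a gene with SGC0946 went with its transcript length across 12324 genes (Spearman's rho of −0.334 in PBS and −0.448 in MSUc), and the part of this in these values was not tested. No member differed in its MSUc response, where 0.0325% of genes passed (0.0325% higher, 0% lower). At an unadjusted p under 0.05, 1388 genes did. The PBS call of Lars2 was lost without vehicle replicate 1 or 3 or SGC0946 replicate 2 or 3. In MSUc the total of 5 lay between 3 and 6 when 1 library was left out, SGC0946 replicates 1 and 3 moving it most, and the Rars call was lost when any 1 library other than vehicle replicate 1 was left out. The Qars call was lost without vehicle replicate 2 or SGC0946 replicate 1 or 3, and with only the compared groups in the fit.

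ChIP-seq region lists of MSUc against PBS gave the chromatin around the members, with the nearest gene as assigned by the authors. The labels list 1 MSUc and 2 PBS libraries for TFE3, 2 and 3 for TFEB, and 3 and 3 for DOT1L. They list 2 and 3 for H3K27ac and 2 and 2 for H3K4me3. Regions that gained H3K4me3, a mark of active starts, were nearest to 6 of 37 members (16.2%), Aars, Eprs, Fars2, Iars2, Rars and Sars, beside 2.70% of all genes, and regions that lost it to none, beside 2.05%. In the authors' deposited table the region at the Aars start (chr8:111032801-111034801, 41 bases upstream of it) had a log2 change of 1.76. Those in the first intron of Sars had 1.79 and 1.23, and those at Eprs 1.05, 1.02 and 1.24. The Sars regions overlap each other, as do the Eprs regions with 1.05 and 1.02, so these are not separate gains. Iars2 gained H3K4me3 116 bases from its start (1.15) and Fars2 83.02 kb from its start (2.73). Iars2 and Fars2 RNA was called lower with MSUc in 7 and 4 of 8 experiments as deposited, and in 0 after median-of-ratios scaling. H3K27ac, a mark of active promoters and enhancers, was gained near 1 member, Fars2 (2.70%, beside 4.71% of all genes), and reduced near 2, Nars and Cars2 (5.41%, beside 4.46%). The reduced region at the Cars2 start (chr8:11549763-11551763) had a log2 change of −1.48 in the authors' deposited table, and that in its first intron, which overlaps it, −1.44. The reduced region in an intron of Nars had −1.02, although Nars RNA was called higher with MSUc in 5 of 8 experiments as deposited. The gained region at Fars2 had 1.98. The gained lists named 4 members for DOT1L (10.8%, beside 10.0% of all genes), 2 for TFE3 (5.41%, beside 11.3%) and 2 for TFEB (5.41%, beside 12.9%). The reduced list for DOT1L named 3 (8.11%, beside 10.9%). The DOT1L, TFE3 and TFEB lists hold no region nearer than 3001 bases to any start, so these shares leave out binding at starts.

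Rars was the member with most of these regions. It had 5 gained DOT1L, 4 gained TFE3 and 3 gained TFEB regions within chr11:35837711-35844631 (mm10), at −3314 to −9989 bases from its start, some of them in the end and introns of the neighbouring gene Wwc1 as the authors annotated them. At 3 of these sites the regions of all 3 proteins overlapped by at least 1 base. For TFE3 the labels list only 1 MSUc library. The 3 regions that gained H3K4me3 lay at −3339, −4007 and −4599 bases, with log2 changes of 1.12, 1.25 and 1.32 in the authors' deposited table. These 3 regions overlap each other, so they are not separate gains. The DOT1L, TFE3 and TFEB lists hold no region near any start, with smallest distances of 3001 to 3045 bases per list. They therefore cannot show whether these proteins lay at the start of Rars or of another member. Rars RNA was lower in libraries labelled Tfe3KO as given above, and did not pass between TfebTg and TfebWT.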

How the data were processed

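Expression values are TPM, reads per transcript length scaled to a fixed total, in 8 tables that the authors deposited, with reads aligned to mm10 by STAR and counted with HOMER per the submitters' processing notes, which are given without versions. The deposited tables hold 1 transcript per gene, and their TPM sum to 528079 to 569594 per library. Whole reads were recovered from TPM and length (at least 99.969% of values within 0.15 of a whole read). The region lists give log2 changes, p-values and distances that the authors computed before deposit, per the file headers. Transcript lengths are in the other columns of the deposited tables.

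Per experiment, limma 3.58.1 (R 4.3.3, trend) was fitted on log2(TPM + 1) over all groups, for genes that reached 1 TPM in a number of libraries equal to the smallest group, with Benjamini-Hochberg adjusted p under 0.05. No count test was used. The fit was tested on simulated data in which few genes changed, without a shift of the median gene or a link between replicates. The real comparisons differ in these points, so the simulation does not check the fit under their conditions. Groups follow the sample titles, and 2 columns without a matching sample (a silica and an SGC0946 PBS column) were not used.

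Members and lists were chosen with earlier results of these data known. The naming rule took the 4 cytosolic and 2 mitochondrial members with the smallest p per comparison, or 2 where none was called, the targeted genes, and 4 genes per context list. Members named beyond it, the Aars, Gars and Tars promoters and the 4 silica or CPPD against MSUc comparisons were chosen after values were seen. Alternatives were the pseudocount (0.1), no filter, median-of-ratios scaling, fits on the compared groups only, a replicate block and leaving out each library. Promoters are RefSeq's (GRCm38.p6). The values of 1 member are not reported here, though totals include it.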

Additional observations from a re-analysis of the deposited data

Results flagged for a closer look

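The response to MSUc differed between libraries labelled Ampka1KO and those labelled Ampka1WT for 21 members, by the interaction term of limma with Benjamini-Hochberg adjusted p under 0.05, beside 50.6% of all genes tested, so the count is near the background. It was 13 after median-of-ratios scaling. Among the named members the difference between the responses, on the log2 scale, was 1.06 for Qars, 1.03 for Kars, 0.77 for Lars, 0.85 for Dars, 1.01 for Tars2 and 0.92 for Wars2. Fibroblast and macrophage marker sums differed between the same libraries, and their part was not tested.

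The response to MSUc differed between metformin and vehicle for 9 members by the same test, beside 12.2% of all genes tested. Without 1 of 6 libraries the count was 4 or 5. The difference between the responses was −0.83 for Aars, −0.71 for Rars, −0.59 for Eprs, −0.65 for Cars and 0.96 for Vars2. The Vars2 call was lost when any 1 library other than metformin PBS replicate 2 was left out (adjusted p of 0.0501 to 0.0847) and without the filter on low values (0.0641).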

How the results depend on the processing

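Of 46 counts of members called, 40 stayed within 1.5 times after median-of-ratios scaling, 45 without a filter, 45 with pseudocount 0.1, 38 with only the compared groups and 44 with a replicate block. The labels do not say that replicate numbers pair the samples. Same-numbered libraries of different groups correlated, as deviations from group means, at −0.55 to 0.59 in the time course (median −0.38, 42 of 90 pairs over 0.1). With 2 libraries per group, a negative value means that the opposite numbers deviated together. This held for the PBS groups at 30 minutes, 1 hour, 2 hours and 5 hours against the PBS group at 10 minutes. In the Tfe3 experiment the range was −0.08 to 0.38 (39 of 84 over 0.1). The main fit held no replicate term. Median-of-ratios scaling gave 4 calls for Tfe3KO in CPPD (2 as deposited), 3 for Tfe3KO in silica (5), 0 for libraries labelled Bhlhe41 knockout in PBS (1), 13 for the Ampka1KO response (21), 9 for SGC0946 in MSUc (5) and 5 for CPPD against MSUc (10). Only the compared groups gave 0 at 1 hour (1), 3 at 2 hours (7), 0 for Tfe3KO in PBS (1), 1 in MSUc (3) and 3 in silica (5), 0 for libraries labelled Bhlhe41 knockout and SGC0946 in PBS (1 each) and 10 for metformin in MSUc (16). The replicate block gave 4 for Tfe3KO in CPPD and 0 for SGC0946 in PBS, and crossed numbers, a pairing chosen after seeing the data, gave 3 at 1 hour and 14 at 2 hours. Without a filter Tfe3KO in silica had 3, and pseudocount 0.1 gave 2 at 1 hour. The TfebWT library with conflicting labels, counted as PBS, gave 0 (20), although its Rars and Qars levels lay with the MSUc libraries. The 9-letter response element left 3 promoters (5). Leaving out 1 library gave 0 to 1 at 30 minutes and 1 hour, 3 to 7 at 2 hours, 0 to 1 for Tfe3KO in PBS, 3 to 5 in silica, 11 to 21 for TfebWT, 0 to 0 for libraries labelled Bhlhe41 knockout, 0 to 1 for SGC0946 in PBS, 3 to 6 in MSUc, 4 to 8 for the metformin response and 4 to 10 for CPPD against MSUc. At 30 minutes, without PBS replicate 2, 1 member was called, and Rars2, not called, ranged from −0.0687 (without PBS replicate 1) to 0.97. The causes were not tested. With a median of 106 reads per library, mitochondrial members limit the smaller differences.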
